A study of Mus musculus with 16 samples.

Results

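A group of 6 mouse genes around the receptor tyrosine kinase MET and the kinase ERK were followed across two-colour arrays of M833 and WT cells. They were the adaptor genes Grb2 and Cbl, the co-receptor gene Cd44, the transcription factor genes Egr1 and Fosl1 and the inhibitor gene Spred2. All 6 were found among the 7114 genes that had a single symbol in the platform annotation, through 8 of the 15247 probes, with a pair of probes each for Grb2 and Cd44 and 1 probe for each of the others. By its title the series concerns Met mutations in MEFs, which usually means fibroblasts grown from mouse embryos. Total RNA of 8 M833 and 8 WT samples was hybridised against a common reference RNA, in each cell type on 4 arrays with the sample in Cy5 and on 4 with it in Cy3. What M833 stands for is not explained in the labels, which give no strain, treatment, time, age or number of cultures. No label ties the arrays of a cell type to separate cultures, and the p-values therefore cover array-to-array spread that may be technical. Met and Hgf had 0 probes under their symbols and are not analysed here, so that the state of the receptor and its ligand is not known from these values.

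MET is the cell surface receptor of hepatocyte growth factor. When the ligand binds, the receptor phosphorylates its own tail, and GRB2 docks there and brings in the exchange factor SOS, which switches on RAS and then the kinases RAF, MEK and ERK. GRB2 also brings in CBL, a ubiquitin ligase that marks the receptor for uptake and breakdown, and splice forms of the hyaluronan receptor CD44 can present the ligand and link the receptor to the cytoskeleton. ERK activity induces immediate early genes such as Egr1, a zinc finger transcription factor, and later Fosl1, which encodes the AP-1 subunit FRA1, while SPRED proteins hold back the activation of RAF by RAS. In fibroblasts this cascade answers many growth factors besides hepatocyte growth factor.

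Stretches of 250 bases before annotated transcription starts are shown for 4 members, the pair Grb2 and Cbl and the pair Cd44 and Spred2, whose ratios moved together over the arrays as described below. They come from RefSeq on GRCm38.p6 and are written on the strand of the gene. Capitals mark each match, on either strand, to GCGGGGGCG (the EGR motif), GGGCGG (the GC box), TGANTCA (AP-1), TGACGTCA (CRE), CCGGAAGT (ETS) or TATAAA, the core promoter box, and no marked matches of different motifs overlapped. The Grb2 stretch lies at chr11:115699929-115700178 on the minus strand, before the more upstream of 2 listed starts, and holds TATAAA 228 bases before it. The Cbl stretch, at chr9:44234047-44234296 on the minus strand, holds the EGR motif with its first base 20 bases before the start, and 3 GC boxes, of which a pair share 1 base. The Cd44 stretch, at chr2:102901666-102901915 on the minus strand, holds none of these letters. The Spred2 stretch, at chr11:19924192-19924441 on the plus strand, holds 1 GC box. Of the 32851 stretches of this length listed by RefSeq, 2.57% hold the EGR motif, 32.7% the GC box, 12.4% TATAAA, 6.75% AP-1, 1.55% CRE and 2.88% ETS. These are matches of letters in a fixed window, and no binding was measured.
Grb2: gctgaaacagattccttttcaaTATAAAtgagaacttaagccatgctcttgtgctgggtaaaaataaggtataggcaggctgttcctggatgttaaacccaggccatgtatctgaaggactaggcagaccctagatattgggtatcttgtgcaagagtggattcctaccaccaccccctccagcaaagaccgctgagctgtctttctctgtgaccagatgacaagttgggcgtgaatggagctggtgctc
Cbl: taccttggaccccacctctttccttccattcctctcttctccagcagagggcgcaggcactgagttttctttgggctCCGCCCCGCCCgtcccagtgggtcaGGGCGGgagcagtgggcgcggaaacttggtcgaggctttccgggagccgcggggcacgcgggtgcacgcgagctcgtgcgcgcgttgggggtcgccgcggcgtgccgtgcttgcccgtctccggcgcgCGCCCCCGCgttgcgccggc
Cd44: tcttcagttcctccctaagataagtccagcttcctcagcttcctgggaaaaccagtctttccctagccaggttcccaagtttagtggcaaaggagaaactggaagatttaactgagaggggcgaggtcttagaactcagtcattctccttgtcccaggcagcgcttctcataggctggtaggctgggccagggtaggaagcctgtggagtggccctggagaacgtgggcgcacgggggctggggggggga
Spred2: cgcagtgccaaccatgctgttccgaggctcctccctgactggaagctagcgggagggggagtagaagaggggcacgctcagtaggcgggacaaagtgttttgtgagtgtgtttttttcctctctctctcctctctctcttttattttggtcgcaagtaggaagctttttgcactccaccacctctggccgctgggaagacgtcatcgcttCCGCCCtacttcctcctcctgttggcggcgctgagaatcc

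All values are log2 ratios of the cell sample to the reference RNA. This direction is likely from the titles but stated nowhere, and a negative value means less signal than the reference, whose make-up is not given. Array medians lay between -0.02 and 0.07, and pairs of arrays correlated over all probes with r from 0.591, or from 0.818 without WT replicate 2, which had 49 values above 8. Over all features the WT arrays fell into sets that deviated together. After dye adjustment, deviations from the WT mean had rank correlations of 0.281 to 0.586 within replicates 1, 2, 5 and 6 or within replicates 3, 4, 7 and 8, and of -0.653 to -0.281 between these sets. The same split of the M833 arrays was not so clear, with -0.262 to 0.247 within sets and -0.42 to 0.006 between them. The labels do not name these sets, and each member is therefore given by set as well as by cell type. The sets were found in these data. A fit against a single WT set counts its arrays as separate replicates and leaves out the spread between the WT sets. Its p-values cover the spread of arrays within that set alone on the WT side.

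Both adaptor genes were lower in M833, Cbl by more than Grb2. For Cbl the 8 M833 arrays had a lowest ratio of -0.89, a median of -0.48 and a highest of -0.21, against -0.65, -0.13 and 0.19 on the 8 WT arrays. The wide spread within each cell type followed the dye: with the sample in Cy5 the ratios averaged -0.76 ± 0.14 in M833 and -0.42 ± 0.25 in WT, and with the sample in Cy3 -0.26 ± 0.07 in M833 and 0.02 ± 0.17 in WT (SD, n = 4 each). The dye effect of Cbl, -0.46, was greater in size than that of 93.5% of all features, 41.3% of which had a dye effect that passed the test. With dye orientation in the fit Cbl fell to 80.7% of the WT level, or by 0.31 ± 0.08 on the log2 scale (SE, 8 arrays per cell type), with an adjusted p of 0.0084 (limma, Benjamini-Hochberg over 12761 features). The arrays did not overlap with the sample in Cy3 and overlapped with the sample in Cy5. An exact two-sided permutation of cell type within dye orientation, whose smallest possible p is 0.000408, gave p = 0.000816.

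Grb2, averaged over its probes, ran from -0.42 to -0.06 with a median of -0.21 on the M833 arrays, against -0.23 to 0.25 with a median of -0.05 on the WT arrays. The arrays lay apart with the sample in Cy5 and overlapped with it in Cy3. The fitted log2 difference was -0.21 ± 0.06 (SE, n = 8 per cell type; adjusted p = 0.0126, limma), with a 95% interval of -0.33 to -0.09, and the exact permutation p was 0.00286. The probes of Grb2 differed in size. One lay at -0.46 ± 0.21 in M833 and -0.17 ± 0.22 in WT and fell by 0.29 on the log2 scale (adjusted p = 0.0073, limma on single probes), while the other lay at 0.004 ± 0.08 in M833 and 0.13 ± 0.13 in WT (SD, n = 8 each) and, at -0.12, missed the threshold (adjusted p = 0.076). The gap between the probes itself differed by -0.17 between the cell types (exact permutation p = 0.00857). Which part of the transcript each probe covers was not tested.

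The decrease of both adaptor genes was larger against one set of WT arrays. After dye adjustment Cbl averaged -0.43 on M833 replicates 1, 2, 5 and 6 and -0.59 on M833 replicates 3, 4, 7 and 8, against -0.36 and -0.04 on the WT arrays of the same numbers. For Grb2 these means were -0.19 and -0.26 in M833, against -0.15 and 0.11 in WT. Both genes were thus near the M833 level on WT replicates 1, 2, 5 and 6 and above it on WT replicates 3, 4, 7 and 8. Without WT replicates 1, 2, 5 and 6, a fit that called 33.9% of all features, the difference was -0.47 for Cbl (adjusted p = 0.000186, limma) and -0.34 for Grb2 (adjusted p = 1.46e-05). Without WT replicates 3, 4, 7 and 8, a fit that called 36.3%, it was -0.15 for Cbl (adjusted p = 0.0638) and -0.08 for Grb2 (adjusted p = 0.132), and neither passed the test. Under the random block of sets Cbl remained called (adjusted p = 0.0476) and Grb2 was not (adjusted p = 0.0521). That fit applied the same correlation, 0.324, to all features. The WT sets of Cbl lay apart, so its error there may be understated. Neither gene was called once every set counted as a single value (adjusted p = 0.44 for Cbl and 0.491 for Grb2, limma), a fit that called 0 of 12761 features.

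**Figure D1:**
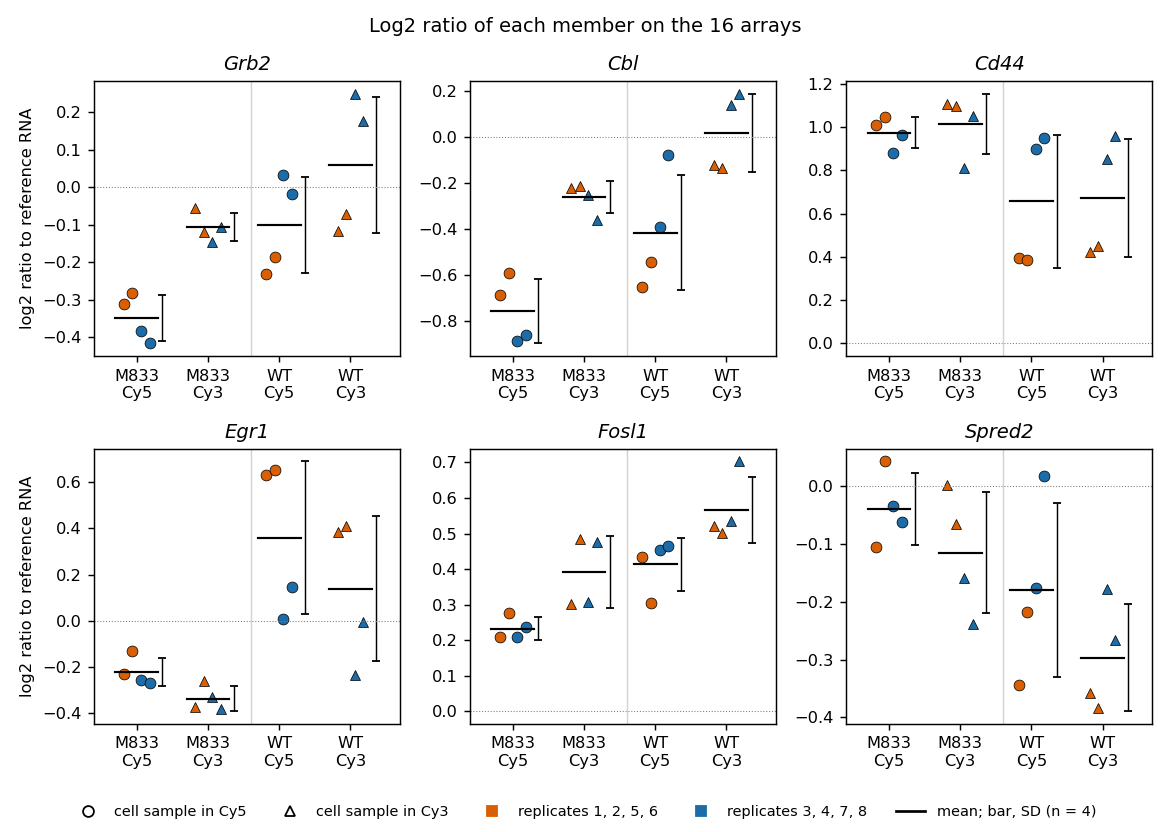
The 6 panels show the log2 ratio to the reference RNA (vertical axis, a scale for each panel) of each member on every array, by cell type and dye, with circles for samples in Cy5, triangles for samples in Cy3, colour for the set of replicates, a line for the mean and a bar for its SD over 4 arrays. WT arrays of Cd44 and Egr1 form separate clusters by set, those of Cbl shift with the dye, and for Egr1 and Fosl1 the M833 arrays lie below the WT arrays within each dye.

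Cd44, averaged over its probes, lay above the reference on every array of both cell types and was higher in M833, although its second probe alone was below the reference on some WT arrays, down to -0.16. Its ratios ran from 0.81 to 1.11 with a median of 1.03 on the M833 arrays, against 0.38 to 0.96 with a median of 0.65 on the WT arrays. The groups overlapped in both dye orientations. The fitted difference of 0.33 ± 0.10 on the log2 scale (SE, n = 8 per cell type) is a 1.26-fold higher level in M833, with an adjusted p of 0.0231 in limma and an exact permutation p of 0.00898. Both probes rose, the first by 0.36 (adjusted p = 0.0213, limma on single probes) and the other by 0.30 (adjusted p = 0.0284), while the gap between them differed by 0.06 between the cell types (p = 0.176 by exact permutation). The dye effect of Cd44 was small, at -0.03. With array weights the difference was 0.21 and not called (adjusted p = 0.0658, limma).

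The WT arrays took a pair of levels for Cd44. After dye adjustment WT replicates 1, 2, 5 and 6 lay between 0.40 and 0.44 and WT replicates 3, 4, 7 and 8 between 0.84 and 0.96, whereas the M833 arrays lay between 1.02 and 1.09 on replicates 1, 2, 5 and 6 and between 0.80 and 1.04 on replicates 3, 4, 7 and 8. The WT arrays of the upper level thus fell inside the M833 range. Against WT replicates 1, 2, 5 and 6 alone Cd44 was 0.58 higher in M833 (adjusted p = 1.35e-05, limma), and against WT replicates 3, 4, 7 and 8 alone it was 0.08 higher and not called (adjusted p = 0.31). The difference between the WT sets, -0.50, was greater in size than for 93.1% of features, where the median size was 0.13. Under the random block of sets Cd44 was not called (adjusted p = 0.0622).

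With all arrays Egr1 had the largest difference of the 6 genes, which did not hold against WT replicates 3, 4, 7 and 8 alone, where Cbl and Grb2 differed more. It lay below the reference in M833, from -0.38 to -0.13 with a median of -0.26, against -0.23 to 0.65 with a median of 0.27 on the WT arrays. Within each dye orientation the M833 arrays all lay below the WT arrays, at -0.27 to -0.13 in M833 against 0.01 to 0.65 in WT with the sample in Cy5, and at -0.38 to -0.26 in M833 against -0.23 to 0.41 in WT with the sample in Cy3. Egr1 fell to 69.3% of the WT level, or by 0.53 ± 0.11 on the log2 scale (SE, 8 arrays per cell type; 95% interval -0.75 to -0.30), with an adjusted p of 0.0016 in limma. The exact permutation p was 0.000408, the smallest that this test can give. The M833 arrays were tightly grouped, with an SD of 0.06 after dye adjustment, against 0.30 in WT.

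The spread of Egr1 in WT lay between the sets. WT replicates 1, 2, 5 and 6 averaged 0.52 ± 0.05 and WT replicates 3, 4, 7 and 8 averaged -0.02 ± 0.11 after dye adjustment, while the M833 sets averaged -0.25 ± 0.06 and -0.31 ± 0.05 (SD, n = 4 each). Both WT sets were above both M833 sets, by unequal amounts. The difference was -0.80 without WT replicates 3, 4, 7 and 8 (adjusted p = 2.82e-07, limma) and -0.26 without WT replicates 1, 2, 5 and 6 (adjusted p = 0.00156), and Egr1 was called in both. Both fits leave out the spread between the WT sets, where most of the WT spread of Egr1 lay. Egr1 was also called under the random block of sets (adjusted p = 0.00759). That fit applied the same correlation, 0.324, to all features. The WT spread of Egr1 lay mostly between the sets, so its error there may be understated. Once every set counted as a single value, 2 against 2, Egr1 was not called (unadjusted p = 0.0548, adjusted p = 0.388, limma). Its call therefore does not hold when the sets are the units, in a fit that called 0 of 12761 features. The set of WT arrays with the higher Egr1 ratios was the set with the lower Cd44 ratios.

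Fosl1 was above the reference in both cell types and lower in M833, by a small amount that was called against each WT set and not under the random block of sets. Its ratios ran from 0.21 to 0.48 with a median of 0.29 on the M833 arrays, against 0.30 to 0.70 with a median of 0.48 on the WT arrays. Within each dye orientation the arrays did not overlap, with 0.21 to 0.28 in M833 against 0.30 to 0.46 in WT for the sample in Cy5, and 0.30 to 0.48 in M833 against 0.50 to 0.70 in WT for the sample in Cy3. The log2 difference was -0.18 ± 0.04 (SE, n = 8 per cell type; adjusted p = 0.004, limma), which is 88.5% of the WT level, and the exact permutation p was the smallest possible, 0.000408. By set, Fosl1 averaged 0.32 and 0.31 in M833, against 0.44 on WT replicates 1, 2, 5 and 6 and 0.54 on WT replicates 3, 4, 7 and 8. Against WT replicates 3, 4, 7 and 8 alone the difference was -0.23 (adjusted p = 0.00205), and against the other WT set it was -0.13 (adjusted p = 0.0395). Under the random block of sets it missed the threshold (adjusted p = 0.0807).

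Spred2, the inhibitor gene, was higher in M833 by 0.16 ± 0.05 on the log2 scale (SE, 8 arrays per cell type; adjusted p = 0.0307, limma; exact permutation p = 0.0102), a 1.12-fold level. Its ratios were near the reference, from -0.24 to 0.04 with a median of -0.06 on the M833 arrays, against -0.38 to 0.02 with a median of -0.24 on the WT arrays. The arrays overlapped in both dye orientations. Spred2 averaged -0.03 and -0.12 on the sets of M833 arrays, against -0.32 on WT replicates 1, 2, 5 and 6 and -0.15 on WT replicates 3, 4, 7 and 8. It was called against the first of these WT sets, at 0.25 (adjusted p = 0.00185), and not against the other, at 0.07 (adjusted p = 0.321). Its call was also lost under the random block of sets (adjusted p = 0.18), when the arrays were scaled to one spread (0.14, adjusted p = 0.0536; 26.7% of features called), and without M833 replicate 2, 5 or 6 or WT replicate 1, 5 or 6, where the adjusted p reached 0.0628.

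Over the 6 genes, 4 fell and 2 rose, in a comparison where 25.9% of all features were called, 15.9% lower and 10.0% higher. Because the 6 genes were picked from genes called earlier on these same arrays, nothing is read from that count. Egr1 and Fosl1 were the 2 genes whose arrays lay apart in both dye orientations, both lower in M833. Of all features 10.5% did so, 6.49% lower and 4.01% higher. Under the random block of sets, where 11.5% of features were called, Cbl and Egr1 were called, with errors that may be understated. No member reversed its sign in any alternative fit, although some of these fits, such as the random block, could not change the difference. In fits of one dye orientation alone limma called 0 members, where 6.54% of features were called for Cy5 and 8.62% for Cy3. An unadjusted p under 0.05 was reached by 4 of 6 members and 3132 of 12761 features for Cy5. For Cy3 it was reached by 5 of 6 members and 3110 features. The members had been picked from called genes, and their differences had the same direction in both dye orientations. The dye by cell type interaction was likewise called for 0 of 12761 features in limma, with 361 at an unadjusted p under 0.05, and its unadjusted p for the members ran from 0.483 for Grb2 to 0.918 for Fosl1. When each set was reduced to its mean, so that 2 values stood against 2, limma gave 0 calls among the features and the members, and 1675 features and 0 members had an unadjusted p under 0.05.

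**Figure D2:**
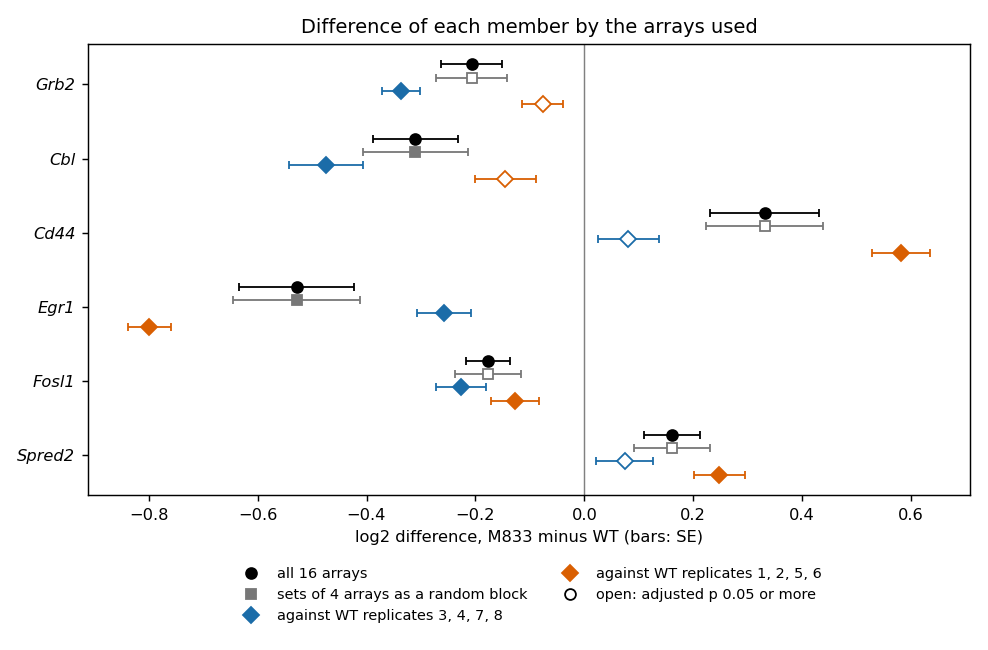
The horizontal axis gives the log2 difference M833 minus WT of each member, with its SE, in 4 fits: all 16 arrays, all arrays with sets of 4 as a random block, and M833 against either set of WT arrays alone; open symbols did not pass an adjusted p of 0.05. Cd44, Egr1 and Spred2 differ more from WT replicates 1, 2, 5 and 6, Grb2, Cbl and Fosl1 more from WT replicates 3, 4, 7 and 8, and every value keeps its side of 0.

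Against the reference, M833 lay lower for Cbl (-0.51), Egr1 (-0.28) and Grb2 (-0.23) and higher for Cd44 (0.995) and Fosl1 (0.31), and each of these ratios differed from 0 (adjusted p from 2.17e-09 for Cd44 to 0.0031 for Egr1, limma), as did 72.4% of all features. Spred2 in M833, at -0.08, did not pass (adjusted p = 0.0686). In WT, Cbl (-0.20) and Spred2 (-0.24) were below the reference, and Cd44 (0.66), Fosl1 (0.49) and Egr1 (0.25) above it (adjusted p from 1.46e-10 for Fosl1 to 0.0062 for Egr1), among 79.2% of all features that differed, while Grb2 at -0.02 did not (adjusted p = 0.632). The mean of Egr1 was therefore below the reference in M833 and above it in WT, but the WT mean rested on replicates 1, 2, 5 and 6 (0.52), since replicates 3, 4, 7 and 8 averaged -0.02. Ratios to a common RNA do not rank the genes by their amount of transcript.

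The 6 genes fell into groups by their course over the arrays. After the mean of each dye orientation was subtracted, Grb2 and Cbl had a Pearson r of 0.896 over the 16 arrays, and Fosl1 had one of 0.724 with Grb2 and 0.734 with Cbl. Cd44 and Spred2 had an r of 0.827, and Egr1 ran opposite to both, at -0.901 with Cd44 and -0.774 with Spred2. These values are descriptions, since the arrays share cell type, set and reference. Among the other 7108 named genes those most like Grb2 were Gabarapl2 (r = 0.962), Vgll3 (0.962) and Mien1 (0.957), and those most like Cbl were Smpd1 (0.939), Dolpp1 (0.936) and Ccnd2 (0.935). Cd44 was most like Sinhcaf (0.975), Tdg (0.967) and Eif4e (0.965), and Egr1 was most like the connexin gene Gja1 (0.981), Lxn (0.974) and Bnc2 (0.97). The gene most like Fosl1 was Dok1 (0.934), which encodes a docking protein of receptor tyrosine kinases, followed by Azin2 (0.926) and Pdcd6ip (0.919). Spred2 was followed by Rhpn2 (0.92), Slf2 (0.912) and Hand1 (0.91).

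The members were set beside 7 lists of genes of the same pathway, which together held 91 measured genes. Of these 22 fell, 9 rose and 60 were not called, and the median difference was -0.07, against a median of -0.03 over all features. Without the members 18 of 85 fell and 7 rose, which is 21.2% and 8.24% beside 15.9% and 10.0% of all features. The counts that follow are of all 91 genes and so include the members, which were picked from called genes. Under the random block of sets, where 11.5% of all features were called, 12 of the 91 were lower and 3 higher. Against WT replicates 3, 4, 7 and 8 alone, where 33.9% of all features were called, the counts were 35 lower and 13 higher. Against WT replicates 1, 2, 5 and 6 alone, where 36.3% were, they were 26 lower and 19 higher. A value near 0 with all arrays did not mean a like level in both sets: of the 60 genes not called, 36 were called against at least 1 WT set, and 12 of them against both sets in opposite directions. The sets were found in these same arrays, and the share of all features that behaved so was not counted. Nothing particular to the pathway is therefore read from these counts.

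Among genes that handle the receptor and its ligand 2 of 9 fell and 1, Cd44, rose. Plat, which encodes tissue plasminogen activator, fell by 0.39 and the co-receptor gene Nrp1 by 0.32 on the log2 scale, and both remained called under the random block of sets (adjusted p = 0.0013 and 0.0016, limma). The matriptase inhibitor genes Spint1 (0.10) and Spint2 (-0.08), the tetraspanin gene Cd151 (-0.04) and the plexin gene Plxnb1 (-0.09) did not pass with all arrays. Plaur (0.19) did not pass either. Against WT replicates 3, 4, 7 and 8 alone Spint2 was called at -0.41, Plaur at -0.32 and Cd151 at -0.11. Against WT replicates 1, 2, 5 and 6 alone Spint2 was called at 0.25, Plaur at 0.70 and Spint1 at 0.39. Of 14 adaptors and effectors 5 fell and 1 rose, with a median of -0.08. Besides Grb2 and Cbl the decreases were in Dok1 (-0.53), the adaptor gene Shc1 (-0.21) and Pik3r1 (-0.20), the regulatory subunit gene of phosphoinositide 3-kinase, while the adaptor gene Grb10 rose by 0.23. The scaffold gene Gab1 (0.09), the exchange factor gene Sos1 (0.08), the phosphatase gene Ptpn11 (-0.04) and the adaptor gene Crk (0.08), which act beside GRB2 at the receptor, did not pass the test with all arrays. Ptpn11 was called at -0.26 against WT replicates 3, 4, 7 and 8 and at 0.18 against WT replicates 1, 2, 5 and 6, and Crk at -0.10 and 0.27 against these sets. Gab1 was called at 0.13 against WT replicates 3, 4, 7 and 8 alone. Sos1 was called at 0.30 against WT replicates 1, 2, 5 and 6 alone. Shc1 (adjusted p = 0.0614) and Pik3r1 (adjusted p = 0.107) lost their calls under the random block of sets, and Dok1 (adjusted p = 0.0317) and Grb10 (adjusted p = 0.042) kept theirs. Without WT replicates 3, 4, 7 and 8 Grb10 was at 0.14 and not called.

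In the list of uptake and dephosphorylation of the receptor 3 of 11 fell, Eps15 (-0.17), the dynamin gene Dnm2 (-0.16) and the deubiquitinase gene Usp8 (-0.11), and none rose. Usp8 was not called under the random block of sets (adjusted p = 0.157, limma), where 2 of 11 were. The partners of CBL in this list, Sh3kbp1 (0.08) and Cd2ap (0.05), did not pass with all arrays. Sh3kbp1 was called at 0.15 against WT replicates 3, 4, 7 and 8 alone, and Cd2ap at 0.16 against WT replicates 1, 2, 5 and 6 alone. In the ERK cascade 1 of 12 genes fell, Braf (-0.15), and 1 rose, the ternary complex factor gene Elk4 (0.12), and neither was called under the random block of sets, where 0 of the 12 were. The kinase genes Map2k1 (-0.03), Map2k2 (-0.03) and Rps6ka3 (0.01) and the gene Nras (0.06) did not pass the test with all arrays. Map2k1, the gene of the kinase MEK, was called in opposite directions by WT set, at -0.32 against WT replicates 3, 4, 7 and 8 and at 0.25 against WT replicates 1, 2, 5 and 6. Nras was called at 0.11 against WT replicates 3, 4, 7 and 8 alone.

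In the list of immediate early and ERK-response genes 9 of 26 fell, the members Egr1 and Fosl1 among them, and 2 rose, with a median of -0.18. Under the random block of sets 6 were lower, Egr1 among them, and 1 higher. After Egr1 the decreases were in Btg2 (-0.46), an antiproliferative gene that p53 also induces, the cyclin D1 gene Ccnd1 (-0.33), the survival gene Mcl1 (-0.30), the AP-1 subunit genes Fosl2 (-0.28) and Jun (-0.24), Klf9 (-0.26) and Atf3 (-0.23). Fos (-0.11) and Myc (-0.07), which serum induces within the hour in fibroblasts, did not pass (adjusted p = 0.65 and 0.61), nor did Ier3 (0.02), Klf4 (0.04) or Errfi1 (-0.06). Against WT replicates 3, 4, 7 and 8 alone Ier3 was called at -0.57, Myc at -0.27 and Klf4 at 0.51. Against WT replicates 1, 2, 5 and 6 alone Ier3 was called at 0.61 and Klf4 at -0.43. The increases were in Hmga2 (0.36), a chromatin protein gene, and Ets1 (0.28), which was at 0.06 and not called against WT replicates 3, 4, 7 and 8 alone. Of the AP-1 subunit genes measured, Fosl1, Fosl2 and Jun were thus lower in M833, and Fos was not called. Klf9 was not called under the random block of sets (adjusted p = 0.117, limma) and was at -0.13 and not called against WT replicates 1, 2, 5 and 6 alone. Jun was not called under the block either (adjusted p = 0.0872), and it was at -0.15 and not called without WT replicates 1, 2, 5 and 6.

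The genes listed as feedback inhibitors of ERK signalling did not move one way. Whether ERK induces them in these cells was not tested, and Dusp4, Dusp5, Dusp6, Spry1 and Spry2 of this list were not measured. Of 11 measured 2 rose and 2 fell, with a median of -0.05. Spred2 rose, and its relative Spred1 fell by 0.21 (adjusted p = 0.0123, limma). Spred1 was not called under the random block of sets (adjusted p = 0.127), and it was at -0.15 and not called against WT replicates 1, 2, 5 and 6 alone. Dusp9, the gene of a phosphatase of ERK, rose by 0.52 and remained called under the random block of sets (adjusted p = 0.0069), where it was the 1 call among the 11, with a difference of 0.77 from WT replicates 1, 2, 5 and 6 taken alone and of 0.27 from WT replicates 3, 4, 7 and 8 taken alone. Rasa3, a gene of a GTPase-activating protein, fell by 0.21 but was at -0.07 and not called without WT replicates 1, 2, 5 and 6, and Spry4 (-0.05), Dusp7 (-0.09) and Dusp10 (-0.04) did not pass. Dusp10, another phosphatase gene, was called at 0.17 against WT replicates 3, 4, 7 and 8 and at -0.24 against WT replicates 1, 2, 5 and 6. Among 9 ligands and partners of CD44, 3 rose and none fell. Besides Cd44 these were Rdx (0.09), which encodes the linker radixin, and Esrp1 (0.42), which encodes an epithelial splicing factor of CD44. Neither passed under the random block of sets, and the linker genes Ezr (0.15) and Msn (0.09) did not pass in the fit of all arrays. Ezr was called at 0.33 against WT replicates 3, 4, 7 and 8 alone. Msn was called at 0.25 against WT replicates 1, 2, 5 and 6 alone.

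**Figure D3:**
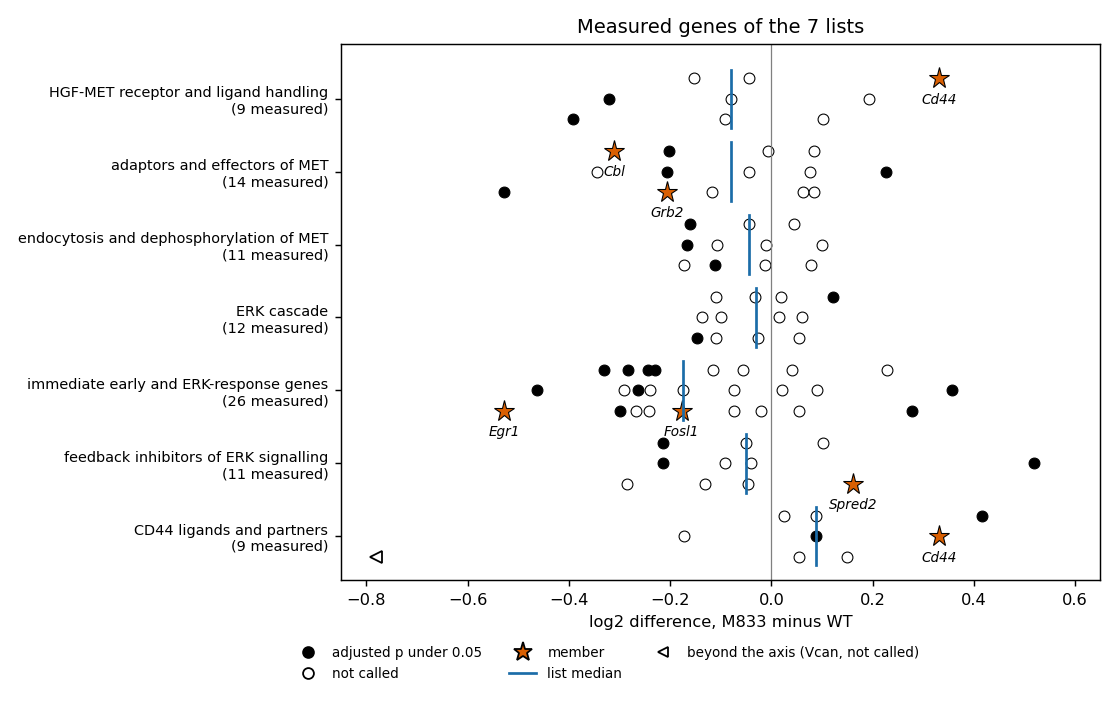
Each point is a measured gene of one of the 7 pathway lists, placed by its log2 difference M833 minus WT (horizontal axis), filled where the adjusted p was under 0.05; stars are the members, blue lines the list medians, and the arrowhead is Vcan, which lies beyond the axis and was not called. Filled points lie mostly left of 0 among the immediate early and ERK-response genes and on both sides among the feedback inhibitors.

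Markers of other cells and states moved with the cell type as well. All 7 of 7 measured macrophage and leukocyte markers, of 19 listed, fell in M833, and their mean ratio after dye adjustment ran from -1.54 to -1.29 on the M833 arrays, against -0.40 to -0.34 on the WT arrays. That mean was -0.37 on each WT set, but single markers shifted between the sets in opposite directions. Lyz2 averaged 0.04 on WT replicates 1, 2, 5 and 6 and -0.68 on WT replicates 3, 4, 7 and 8. On the same sets C1qa averaged -0.71 and -0.47, and Laptm5 -0.90 and -0.58. Of 18 measured genes of cycling cells 15 rose and none fell, with a list mean of 0.02 and 0.14 on the sets of M833 arrays, against -0.26 on WT replicates 1, 2, 5 and 6 and -0.66 on WT replicates 3, 4, 7 and 8. The part of these cells and states in the differences of the members was not tested, and in bulk RNA fewer cells of a type and less RNA per cell cannot be told apart. Of 9 fibroblast markers 6 fell, and the list mean ran from -0.55 to -0.38 in M833 and from -0.22 to -0.05 in WT. Under the random block of sets 3 of the 9 were called. Epithelial markers averaged -2.50 to -1.64 in M833 and -2.59 to -2.03 in WT, with 1 of 8 higher, against 0 under the block and 2 lower when the arrays were scaled to one spread. Red cell and liver genes averaged -5.78 to -5.53 in M833 and -5.97 to -5.53 in WT, with 0 of 6 called and a median difference of 0.05, but with 5 of 6 lower and a median of -0.94 under that scaling. All 3 measured skeletal muscle genes rose, of which 1 was called under the block, 1 under that scaling and 2 against either WT set alone. None of 4 endothelial genes was called in any of these fits. The values are ratios, so that no marker can be said to be absent.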

How the data were processed

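Total RNA of M833 and WT cells was measured against a common reference on 16 two-colour arrays. The deposited values are log2 ratios that the authors had normalised, with limma per the submitters' processing notes. How the background was corrected, by which method the arrays were normalised and what was filtered is not given in the sources used here, and the log2 base was taken from the values, whose largest is 15.35. Arrays were grouped by the source names in the labels, with replicates numbered in series order. There were 0 missing values, and no channel intensities were used here, so that dim probes were not removed.

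Of 15247 probes 9600 had 1 symbol, 214 several and 5433 none, in an old platform annotation, and 9492 matched a current gene table by Entrez number, which changed 0 symbols. Probes of a gene were averaged, which left 12761 features. The fit (lmFit and eBayes of limma 3.58.1, R 4.3.3) had terms for cell type and dye orientation, and features with a Benjamini-Hochberg adjusted p under 0.05 were called. The fit was tested on simulated data. For single values an exact two-sided permutation of cell type within dye orientation, with 4900 arrangements, was added for 12 quantities. Dye-adjusted values have the fitted dye effect of the feature removed. The sets of arrays were found in these data in an earlier analysis, and the random block used a consensus correlation of 0.324.

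The members, the lists and the alternatives were chosen with earlier results of these data known. Genes named are the members, the 3 genes most like each by Pearson r, and measured genes of the 7 pathway lists. The 7 marker lists were of fibroblasts, macrophages and leukocytes, skeletal muscle, epithelium, endothelium, cycling cells, and red cells and liver.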

Additional observations from a re-analysis of the deposited data

How the results depend on the processing

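In 188 alternative values of the members 0 reversed, 137 kept their call and 51 lost it. Many of these come from fits without a single array, which stay close to the main fit. Of the 92 values from the other settings 47 kept their call and 45 lost it. Fits without a dye term, with robust moderation, with the random block or with set means returned the differences of the main fit. A sign could therefore not reverse in those fits. Leaving out single arrays moved Grb2 between -0.24 and -0.18, Cbl between -0.34 and -0.26, Cd44 between 0.29 and 0.38, Egr1 between -0.59 and -0.48 and Fosl1 between -0.19 and -0.16, all still called, and Spred2 between 0.14 and 0.19, not called in 6 of 16 cases. The count of called features ran from 2878 to 3295 in these fits. Calls were lost as follows, and the cause was not tested. Without a dye term Grb2 (-0.21), Cbl (-0.31) and Spred2 (0.16) were not called, and 2000 features were. With array weights Cd44 (0.21) and Spred2 (0.12) were not called, nor was Spred2 (0.14) with scaled ratios, nor the second Grb2 probe by itself (-0.12). With the sample in Cy5 alone no member was called, at -0.25 for Grb2, -0.34 for Cbl, 0.32 for Cd44, -0.58 for Egr1, -0.18 for Fosl1 and 0.14 for Spred2, and 835 features were. With the sample in Cy3 alone these values were -0.17, -0.28, 0.34, -0.48, -0.17 and 0.18, with none called and 1100 features called. With sets as a random block 1465 features were called, and Grb2 (-0.21), Cd44 (0.33), Fosl1 (-0.18) and Spred2 (0.16) were not. With set means as replicates no member was called, at the same values with -0.31 for Cbl and -0.53 for Egr1, with 0 features called by limma and 1675 of them at an unadjusted p under 0.05. Without WT replicates 1, 2, 5 and 6 Cd44 (0.0804) and Spred2 (0.0738) were not called, and without WT replicates 3, 4, 7 and 8 Grb2 (-0.0763) and Cbl (-0.15) were not. Without M833 replicates 1, 2, 5 and 6 Grb2 (-0.24), Cd44 (0.26) and Spred2 (0.11) were not called, with 1685 features called, and without M833 replicates 3, 4, 7 and 8 Grb2 (-0.17), Cbl (-0.23), Cd44 (0.40), Fosl1 (-0.17) and Spred2 (0.21) were not, with 1858 features called. Without the 3 M833 arrays whose slide numbers form another series Grb2 (-0.21), Cbl (-0.31), Cd44 (0.35) and Spred2 (0.19) were not called. After median centring of each array the called features split into 1558 higher and 1635 lower, against 1276 and 2025, and all 6 members kept their calls. No paired analysis was possible because the labels give no replicate numbers. The number of arrays limits the precision, and signal over background is unknown here.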
